A study of Mus musculus with 47 samples.

Results

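The comparison described here set established induced pluripotent stem (iPS) cells against the same 4 clones at an earlier point of the series, shortly after doxycycline was withdrawn. It used 8 of the 47 deposited mouse libraries: the SC1, SC2, SC3 and SC4 clones as iPS cells, and the same clones at the point titled d23, paired by clone number. All 8 came from secondary mouse embryonic fibroblasts, which carry doxycycline-inducible reprogramming factors and start to reprogram when the drug is given. The d23 libraries had 21 days with doxycycline and 2 days without it, and the iPS libraries 21 days with it and 6 days without it. By these per-library labels both groups share the same length of drug treatment and differ in the time after withdrawal. A treatment text in the labels instead counts all days up to d22 and d23 as days with the drug. The other 4 SC sampling points are given only as levels: d14, d21 and d27 (14, 21 and 27 days with the drug) and d22 (21 days with it and 1 day without). The labels do not spell out SC, and they give no strain, transgene, sex or age. The 3 feeder libraries of mouse embryonic fibroblasts had no doxycycline.

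In secondary reprogramming systems the drug switches on transcription factors that turn fibroblasts into pluripotent cells. After withdrawal, cells that have started their own pluripotency network keep it, and cells that have not lose it. Pluripotent cells express Pou5f1, Sox2 and Nanog as a self-sustaining core, together with genes that start late in reprogramming such as Dppa2, Dppa3 and Tdh. Fibroblasts are recognised by collagens, contractile proteins and Thy1, and cells passing through an epithelial state by keratins, claudins and desmosomal proteins. The comparison asks which of these programs still changed between the 2nd and the 6th day without the drug.

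The unit is RPKM, a read number divided by gene length and by library size, given for 22632 genes. In the 8 libraries RPKM summed to 189172.4 to 223976.5, and 11316 to 11839 genes reached 1 RPKM. The spacing of low values gave 31.7 to 97.8 megareads in 7 of the 8, up to a whole multiple. Pou5f1, Sox2 and Nanog were at least 13.9 RPKM in all 8 and below 1 RPKM in all 3 feeders. The fibroblast markers Col1a1 and Thy1 were also present in all 8, at no less than 105 and 54.2 RPKM. In such bulk samples fewer cells of a type and less RNA per cell cannot be told apart. Clone SC2 stood apart: 1594 genes differed at least 2-fold between its 2 libraries, against 455 to 498 in the other 3 clones, and its d23 library had the lowest pluripotency gene levels and the highest collagen levels of the 8. Summed RPKM of the 4 Y-linked genes at d23 was 3.95, 6.49, 15.9 and 34.0 in SC1 to SC4, and 2.04, 6.62, 15.1 and 29.4 in the iPS cells. The feeders had 10.7 to 14.4, so the clones kept their order and differed from each other in Y-linked RNA.

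Most genes did not change past the threshold, and those that did divided between higher and lower calls. Of 11819 genes tested with limma and the clone as a block, 869 (7.35%) rose and 1035 (8.76%) fell at an adjusted p under 0.05, 16.1% in all. The falls were larger: 253 fell and 62 rose at least 2-fold on the fitted scale. In all 4 clones, 36 genes (0.305%) were at least 2-fold lower and 10 (0.0846%) at least 2-fold higher. All 4 iPS libraries lay below all 4 d23 libraries for 1261 genes (10.7%) and above them for 691 (5.85%). Such separate groups were found for 671 of the 1035 falls and 448 of the 869 rises. Log2 differences here are of log2(RPKM + 1), iPS minus d23, which understates changes of weakly expressed genes. The median over all genes tested was -0.03. The counts depended on which clone was left out: without SC1 limma called 0 genes (3334 at an unadjusted p under 0.05), and without SC3 also 0 (2568 unadjusted). Every list count below is likewise 0 without SC1 or without SC3. The list counts below are to be read beside the shares over all genes tested, 7.35% higher and 8.76% lower. Without SC2 limma called 466 higher and 431 lower, without SC4 657 and 1378, and without the clone block 34 and 131.

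**Figure D1:**
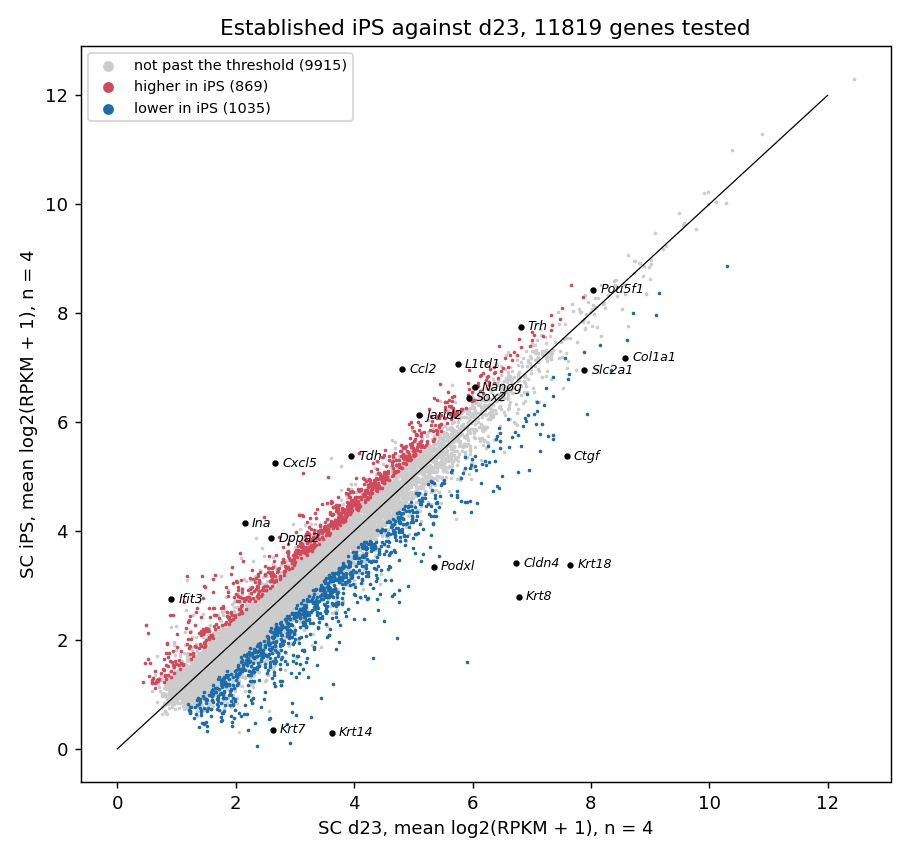
Mean log2(RPKM + 1) of each of 11819 genes in the 4 d23 libraries (x axis) and the 4 iPS libraries (y axis), with the diagonal marking equal levels. Red points are the 869 genes that rose, blue points the 1035 that fell and grey points the rest; Krt18, Krt8 and Cldn4 lie far below the diagonal, while Pou5f1, Sox2 and Nanog lie close to it.

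The largest falls described here were those of simple epithelium keratins and some junction genes. The keratins Krt18 and Krt8 pair into the filaments of simple epithelia, and both fell in every clone. With values given in the order SC1 to SC4, Krt18 measured 172, 493, 202 and 94.2 RPKM at d23 and 7.57, 4.96, 13.7 and 14.5 RPKM in the iPS cells (log2 -4.28 ± 0.56 SE, adjusted p = 0.0212). Krt8 measured 113, 345, 99.5 and 36.1 RPKM at d23 and 5.87, 2.39, 8.49 and 9.34 RPKM in the iPS cells (log2 -3.99 ± 0.71 SE, adjusted p = 0.0262). Every iPS library of both genes was below every d23 library, and SC2 went from the highest d23 value to the lowest iPS value. Krt19 (19.4, 27.5, 26.6 and 15.2 RPKM at d23 and 4.04, 1.41, 7.07 and 5.76 RPKM in the iPS cells, log2 -2.15 ± 0.36 SE, adjusted p = 0.024) and Krt7 (3.25, 13.9, 5.91 and 2.27 RPKM at d23 and 0.17, 0.080, 0.44 and 0.45 RPKM in the iPS cells, log2 -2.27 ± 0.40 SE, adjusted p = 0.026) were likewise separate between groups. Of the 5 simple epithelium keratins tested, 5 fell, with a median log2 difference of -2.27 (-0.03 over all genes), and 4 fell without the clone block.

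Junction genes moved the same way. Of 24 genes for epithelial junctions and epithelial splicing, 10 fell and 0 rose (median -1.02), and 19 were lower in all 4 clones (23.5% of all genes were). Cldn4, a tight-junction claudin, measured 60.5, 286, 105 and 68.2 RPKM at d23 and 22.7, 3.71, 10.8 and 8.72 RPKM in the iPS cells (log2 -3.32 ± 0.67 SE, adjusted p = 0.0321). Cldn3 measured 4.97, 27.3, 15.6 and 7.79 RPKM at d23 and 1.5, 0.57, 1.64 and 1.57 RPKM in the iPS cells (log2 -2.46 ± 0.46 SE, adjusted p = 0.0282). Dsp, the desmosomal plaque protein desmoplakin, measured 14.1, 43.6, 27.1 and 7.47 RPKM at d23 and 2.53, 1.06, 3.09 and 2.47 RPKM in the iPS cells (log2 -2.65 ± 0.48 SE, adjusted p = 0.0267). None of these 3 had an iPS library as high as its lowest d23 library. Outside that list, Itgb4, an integrin subunit of the hemidesmosomes that fix epithelia to their basement membrane, measured 4.45, 22.6, 10.7 and 4.76 RPKM at d23 and 0.39, 0.37, 0.68 and 0.57 RPKM in the iPS cells (log2 -2.69 ± 0.37 SE, adjusted p = 0.0212). Its highest iPS library was also below its lowest d23 library. Crb3, a polarity protein of the apical membrane, stood at 9.6 ± 3.63 RPKM at d23 and 3.2 ± 1.58 RPKM in the iPS cells (log2 -1.38 ± 0.21 SE, adjusted p = 0.023). Cldn6, a claudin of early embryonic epithelium, stood at 58.3 ± 8.37 RPKM at d23 and 24.3 ± 10.2 RPKM in the iPS cells (log2 -1.35 ± 0.25 SE, adjusted p = 0.0285). The 2 surface proteins most used to mark epithelial and pluripotent cells alike did not pass: E-cadherin (Cdh1) measured 69.2, 99.8, 86.2 and 74.5 RPKM at d23 and 59.2, 28.1, 60.8 and 61 RPKM in the iPS cells (log2 -0.70 ± 0.27 SE, adjusted p = 0.122). Epcam measured 59.2, 75.8, 118 and 110.1 RPKM at d23 and 55.9, 23.6, 66.6 and 65.4 RPKM in the iPS cells (log2 -0.82 ± 0.24 SE, adjusted p = 0.0652). Both remained far above their feeder means of 0.117 ± 0.0569 and 0.0667 ± 0.0306 RPKM.

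Squamous epithelium genes showed the same direction with more spread. Of 8 tested, 3 fell and 0 rose (median -1.48), with 5 falls when SC4 was left out. Krt14, the basal keratin of stratified epithelium, measured 7.54, 105, 8.74 and 1.58 RPKM at d23 and 0.16, 0.10, 0.44 and 0.23 RPKM in the iPS cells (log2 -3.32 ± 0.82 SE, adjusted p = 0.0451). Its d23 level in SC2 was far above those of the other clones, while all 4 iPS values were under 1 RPKM. Perp, a desmosomal protein also induced by p53, stood at 34.7 ± 23.6 RPKM at d23 and 6.97 ± 1.13 RPKM in the iPS cells (log2 -1.93 ± 0.42 SE, adjusted p = 0.0352), and Sfn (stratifin, an epithelial signalling adaptor) at 54.5 ± 48.9 RPKM at d23 and 10.8 ± 2.64 RPKM in the iPS cells (log2 -1.89 ± 0.47 SE, adjusted p = 0.0452). Krt17 had the highest level of those not passing: only SC2 was high at d23 (9.26, 85.7, 11.7 and 7.69 RPKM at d23 and 10.9, 2.61, 8.02 and 7.94 RPKM in the iPS cells, log2 -1.21 ± 0.80 SE, adjusted p = 0.322). Among other large falls outside the lists, Clu (clusterin, a secreted chaperone) stood at 34.7 ± 33.4 RPKM at d23 and 3.25 ± 1.24 RPKM in the iPS cells (log2 -2.68 ± 0.56 SE, adjusted p = 0.0331), Msln (mesothelin) at 9.73 ± 10.1 RPKM at d23 and 0.367 ± 0.0991 RPKM in the iPS cells (log2 -2.42 ± 0.54 SE, adjusted p = 0.0374), and Mal, a proteolipid of apical transport, at 5.74 ± 5.04 RPKM at d23 and 0.0375 ± 0.0222 RPKM in the iPS cells (log2 -2.30 ± 0.47 SE, adjusted p = 0.0323).

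Krt18, Krt8, Krt19 and Krt7 had their highest SC means at d22 or d23, after withdrawal, and lower means under the drug. Krt18 stood at 20.3 ± 2.53 RPKM at d21 (mean ± SD, n = 4 here and below), 115 ± 61.3 at d22 and 15.3 ± 1.16 at d27, when the drug was still present. Krt7 stood at 0.287 ± 0.202 RPKM at d21, 3.14 ± 1.82 at d22 and 0.333 ± 0.221 at d27, next to 0.285 ± 0.188 in the iPS cells. The desmosomal and squamous genes had another order: Dsp stood at 66.8 ± 30.4 RPKM at d21 and 61 ± 41.6 at d27, both above its d23 mean, Perp at 119 ± 47.6 and 108 ± 67.2, and Itgb4 at 29.6 ± 15.2 and 17.7 ± 14.6. In the 4 SI clones, the other class of the series, Krt18 stood at 17.6 ± 13.4 RPKM at d21 and 552 ± 392 RPKM at d23. The differences among these points were not tested here.

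**Figure D2:**
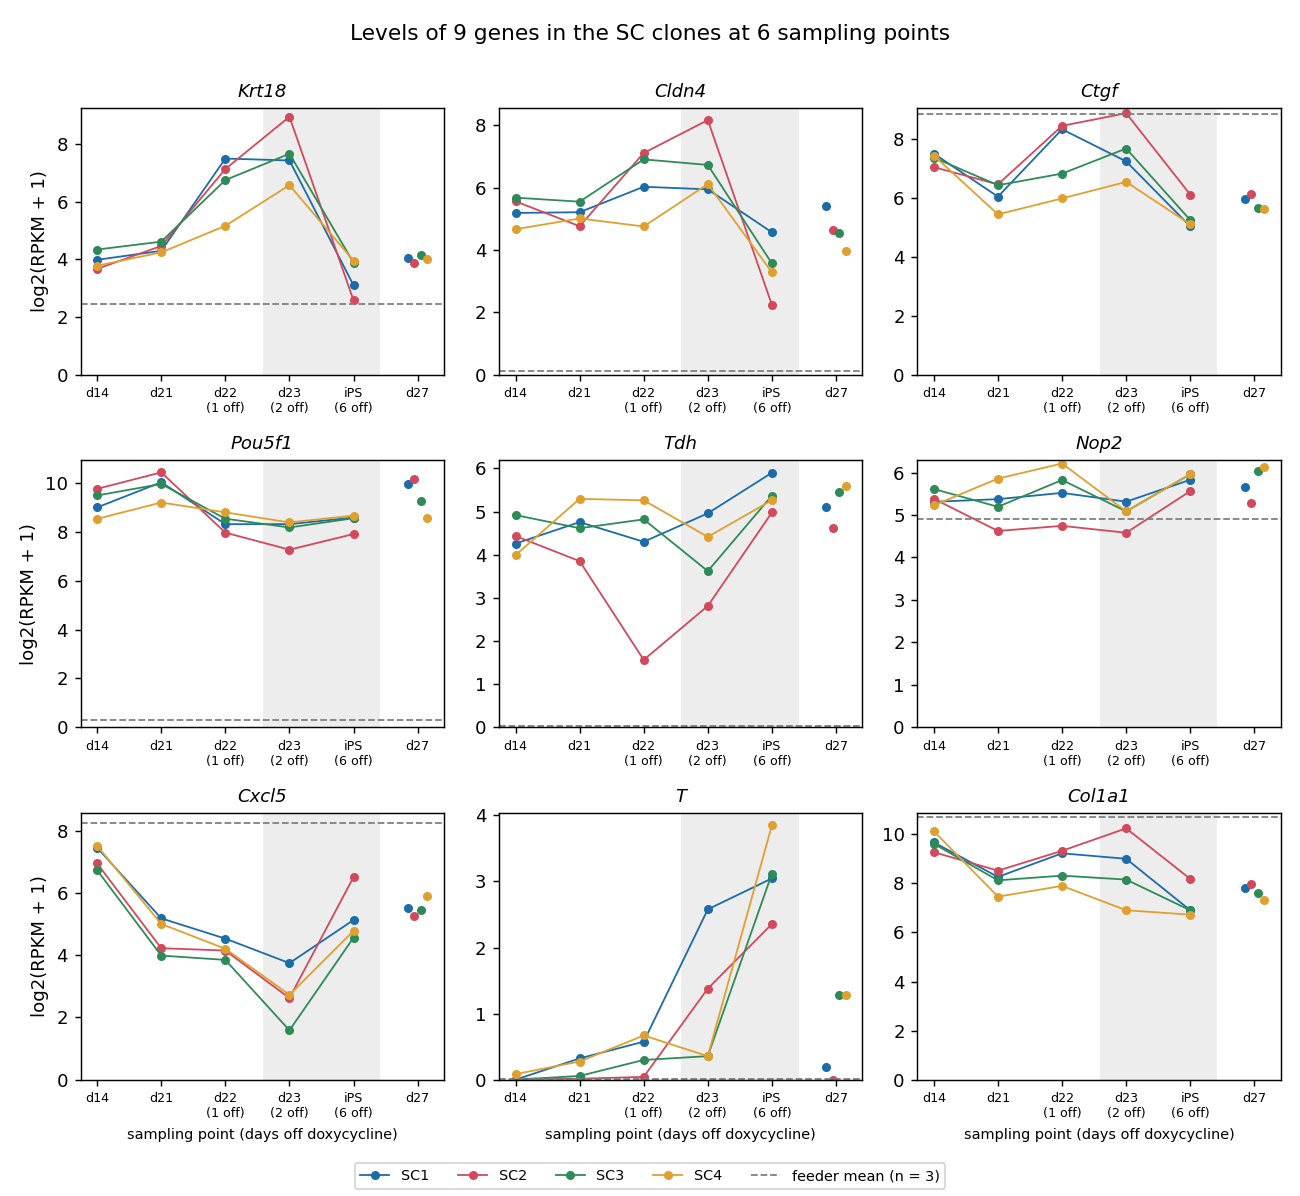
log2(RPKM + 1) of 9 genes (y axes) in each SC clone at d14 and d21 on doxycycline, d22, d23 and iPS after 1, 2 and 6 days without it, and at d27 on the drug (x axes); lines join the libraries of a clone, the dashed line is the mean of 3 feeder libraries, and the shaded band holds the d23 and iPS points compared. Among the points from d21 on, Krt18 and Ctgf are highest at d22 or d23 in every clone, Pou5f1 shows little change between d23 and iPS, and Cxcl5 is at its lowest at d23 in all 4 clones.

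Genes that respond to YAP, SRF and TGF-beta signalling fell alongside. YAP is the co-activator held back by the Hippo pathway, and it binds DNA through TEAD factors. Ctgf and Cyr61 are secreted matrix-associated proteins long used as readouts of YAP. Ctgf measured 151, 470.2, 204 and 92.5 RPKM at d23 and 31.8, 68.3, 37.1 and 33.5 RPKM in the iPS cells (log2 -2.21 ± 0.21 SE, adjusted p = 0.0212). Cyr61 measured 133, 274, 191 and 100.5 RPKM at d23 and 45.1, 88.1, 46.5 and 42.9 RPKM in the iPS cells (log2 -1.60 ± 0.14 SE, adjusted p = 0.0212). Amotl2, an angiomotin that binds YAP, measured 25.9, 41.3, 32.2 and 26 RPKM at d23 and 10.1, 14.8, 11.5 and 11.5 RPKM in the iPS cells (log2 -1.30 ± 0.10 SE, adjusted p = 0.0212). For all 3 the groups were separate, and the difference was at least 2-fold in all 4 clones. Over all genes tested, 10.7% had every iPS library below every d23 library, and 0.305% were at least 2-fold lower in all 4 clones. Of 15 genes in this list 5 fell and 0 rose (median -0.86), with 4 called when SC2 was left out, 9 when SC4 was, and 1 without the clone block. Inhba, the activin subunit, did not pass (76.2 ± 77.4 RPKM at d23 and 32.5 ± 18.6 RPKM in the iPS cells, log2 -0.86 ± 0.28 SE, adjusted p = 0.0831). Feeder means were above all 8 libraries for 8 of the 15 genes; for Ctgf the feeders stood at 457 ± 20.5 RPKM. The part of fibroblasts in these falls was not tested.

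These 2 promoters of the list are shown because their genes fell in every clone and hold the core TEAD binding letters. Each run is the 250 bases upstream of a RefSeq transcription start, read 5′ to 3′ on the gene's strand, and capitals mark CATTCC. The Cyr61 run lies at chr3:145649986-145650235 on the minus strand and the Amotl2 run at chr9:102717554-102717803 on the plus strand (GRCm38.p6).
Cyr61: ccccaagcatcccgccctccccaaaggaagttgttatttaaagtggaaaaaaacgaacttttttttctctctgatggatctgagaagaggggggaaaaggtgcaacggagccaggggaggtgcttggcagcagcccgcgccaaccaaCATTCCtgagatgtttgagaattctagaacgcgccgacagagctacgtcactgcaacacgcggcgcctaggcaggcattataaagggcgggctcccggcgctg
Amotl2: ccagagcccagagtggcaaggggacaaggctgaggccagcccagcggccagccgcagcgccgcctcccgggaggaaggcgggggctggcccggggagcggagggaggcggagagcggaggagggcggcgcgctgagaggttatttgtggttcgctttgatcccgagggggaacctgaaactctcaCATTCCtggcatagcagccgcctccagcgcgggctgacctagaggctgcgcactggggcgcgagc
The match began at -103 in Cyr61 and -65 in Amotl2 relative to the start. Searched on both strands, CATTCC occurred in 5 of the 10 list members with a promoter in the RefSeq table, in 14.4% of all 27025 genes there and in 12.6% of the 9040 tested genes there. Ankrd1, Axl and Ajuba also held the letters and were not called, while Tgfbi fell with 0 matches. Such a match describes letters and is not evidence of binding.

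Collagens and other matrix genes were lower in the iPS cells, with SC4 the least changed. Of 18 collagen genes 14 fell and 0 rose, with a median of -1.34. The median in single clones was -1.98, -1.90, -1.16 and -0.39 in SC1 to SC4. Col1a1, the main chain of fibrillar collagen I, measured 513, 1213, 284 and 119 RPKM at d23 and 119, 289.9, 119 and 105 RPKM in the iPS cells (log2 -1.40 ± 0.33 SE, adjusted p = 0.0412). The SC4 value hardly differed between d23 and iPS, and the SC2 iPS value was above the d23 values of SC3 and SC4. The basement-membrane chain Col4a2 measured 98.5, 221, 71.5 and 34.7 RPKM at d23 and 24.4, 52.4, 19 and 20.5 RPKM in the iPS cells (log2 -1.65 ± 0.23 SE, adjusted p = 0.0212). Col15a1 measured 1.29, 2.11, 1.91 and 1.24 RPKM at d23 and 0.29, 0.29, 0.33 and 0.36 RPKM in the iPS cells (log2 -0.99 ± 0.13 SE, adjusted p = 0.0212); of the collagens, Col15a1 alone had non-overlapping groups. Without SC2 the count of collagens that fell was 5, and without the clone block 1.

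Fibroblast matrix genes followed: of 28 tested, 14 fell and 0 rose (median -0.58). Postn (periostin, a secreted matrix protein) measured 50.3, 105, 25.1 and 14.8 RPKM at d23 and 11.2, 27.5, 8.3 and 8.1 RPKM in the iPS cells (log2 -1.56 ± 0.21 SE, adjusted p = 0.0212). Fn1 (fibronectin) stood at 598 ± 244 RPKM at d23 and 338 ± 97.3 RPKM in the iPS cells (log2 -0.78 ± 0.12 SE, adjusted p = 0.0233), Lox (lysyl oxidase, which crosslinks collagen) at 164 ± 92.1 RPKM at d23 and 90.8 ± 64.7 RPKM in the iPS cells (log2 -0.90 ± 0.14 SE, adjusted p = 0.0234), and its relative Loxl3 at 33 ± 8.47 RPKM at d23 and 14.7 ± 3.52 RPKM in the iPS cells (log2 -1.10 ± 0.12 SE, adjusted p = 0.0212). Tnc (tenascin C) did not pass (474 ± 401 RPKM at d23 and 348 ± 199 RPKM in the iPS cells, log2 -0.14 ± 0.32 SE, adjusted p = 0.776). Without SC2, 6 of the 28 were called. Of 15 smooth muscle contractile genes 3 fell, Des, Smtn and Lmod1 (8.76% of all genes tested fell). In SC4 11 of the 15 were higher in the iPS cells, and without SC4 limma called 14 of the 15 lower. Acta2, the smooth muscle actin of activated fibroblasts, measured 381, 1039.7, 91.1 and 30.9 RPKM at d23 and 73.9, 269, 64.4 and 71.4 RPKM in the iPS cells (log2 -0.90 ± 0.57 SE, adjusted p = 0.299); SC4 was the only clone in which the iPS value was the higher. Thy1, the fibroblast surface marker, measured 159, 223, 63 and 60.4 RPKM at d23 and 68.8, 140.3, 54.2 and 59.1 RPKM in the iPS cells (log2 -0.53 ± 0.20 SE, adjusted p = 0.118), which missed the threshold.

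Fibroblast RNA was present at both points. Summed RPKM of the 20 collagens was 506.7 to 3539 at d23, 388 to 925 in the iPS cells and 4472 to 4880 in the feeders. The feeder mean lay above all 8 libraries for 14 of 18 collagens and 13 of 15 contractile genes tested. Over all genes the same held for 39.1% of those that fell, 6.44% of those that rose and 26.2% of those tested. Macrophage genes, a check on another cell type of primary cultures, summed to 90.9 to 191 RPKM at d23 and 46.6 to 85.0 in the iPS cells, against 243 to 258 in feeders. Of 8 tested 2 fell, Laptm5 (8.25 ± 2.11 RPKM at d23 and 3.29 ± 1.04 RPKM in the iPS cells, log2 -1.12 ± 0.15 SE, adjusted p = 0.0212) and Lyz2 (75.3 ± 44.7 RPKM at d23 and 35.7 ± 14.2 RPKM in the iPS cells, log2 -0.93 ± 0.16 SE, adjusted p = 0.0253), with 6 falls when SC4 was left out and 1 when SC2 was. How much of the matrix and contractile falls follows the amount of feeder or fibroblast RNA was not tested.

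Stress-linked genes were lower too. Immediate early genes encode transcription factors switched on within minutes of a stimulus, and of 14 tested 7 fell and 0 rose (median -0.72). Jund measured 23.8, 40.6, 24 and 20.0 RPKM at d23 and 12.4, 8.89, 8.69 and 10.4 RPKM in the iPS cells (log2 -1.30 ± 0.21 SE, adjusted p = 0.024), with all iPS values below all d23 values. Jun stood at 25.1 ± 12.6 RPKM at d23 and 13.3 ± 4.26 RPKM in the iPS cells (log2 -0.80 ± 0.14 SE, adjusted p = 0.0251) and Klf6 at 29.1 ± 11.1 RPKM at d23 and 14.4 ± 3.29 RPKM in the iPS cells (log2 -0.92 ± 0.12 SE, adjusted p = 0.0212). Of 23 p53 targets and CDK inhibitors 12 fell and 1 rose (median -0.56). Cdkn2a, the senescence locus that encodes a CDK inhibitor and Arf, measured 32, 62, 29.2 and 17.2 RPKM at d23 and 12.3, 15.5, 8.27 and 9.48 RPKM in the iPS cells (log2 -1.44 ± 0.19 SE, adjusted p = 0.0212). Btg2, an antiproliferative p53 target, measured 30.4, 49, 42.8 and 37.5 RPKM at d23 and 17.4, 13.5, 18 and 17.2 RPKM in the iPS cells (log2 -1.21 ± 0.17 SE, adjusted p = 0.0212). Phlda3, another p53 target, measured 51.9, 69, 45.1 and 35 RPKM at d23 and 26, 26.2, 20.6 and 24.5 RPKM in the iPS cells (log2 -0.98 ± 0.15 SE, adjusted p = 0.0231). The groups of these 3 were separate. The member that rose was Trp53 itself, the gene of p53, at 30.4, 20.7, 28.4 and 28.7 RPKM at d23 and 45.3, 31.1, 50.0 and 50.8 RPKM in the iPS cells (log2 0.68 ± 0.09 SE, adjusted p = 0.0212). Bax, the p53-induced death effector, was nearly equal between days (73.3 ± 7.85 RPKM at d23 and 74.5 ± 10.4 RPKM in the iPS cells, log2 0.02 ± 0.09 SE, adjusted p = 0.885). Without SC2 limma called 4 falls among the early genes and 4 among the p53 and inhibitor genes. The feeder mean was above all 8 libraries for 8 of the 14 early genes and 10 of the 23 p53 and inhibitor genes. Over all genes tested this held for 26.2%. The part of feeder or fibroblast RNA in these falls was not tested.

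The core pluripotency factors did not pass the threshold: limma called 0 of the 4 reprogramming factors, with 2 (Pou5f1 and Myc) at an unadjusted p under 0.05. Pou5f1 (Oct4) measured 318, 153, 289 and 334 RPKM at d23 and 383, 239.8, 376 and 406 RPKM in the iPS cells (log2 0.39 ± 0.12 SE, adjusted p = 0.0697). It was higher in the iPS cells of every clone, with SC2 lowest on both days. Sox2 measured 71.2, 13.9, 111 and 117 RPKM at d23 and 118, 64.8, 90.7 and 79.2 RPKM in the iPS cells (log2 0.51 ± 0.44 SE, adjusted p = 0.44), and was higher in the iPS cells of SC1 and SC2 and lower in those of SC3 and SC4. Nanog measured 80.7, 20.3, 100.2 and 105 RPKM at d23 and 107, 61.3, 126 and 114 RPKM in the iPS cells (log2 0.60 ± 0.24 SE, adjusted p = 0.131). For Klf4 the values were 13.2, 7.25, 10.7 and 11.9 RPKM at d23 and 14.7, 12, 12.3 and 10.1 RPKM in the iPS cells (log2 0.19 ± 0.15 SE, adjusted p = 0.405), and for Myc 11.7, 12.4, 7.2 and 9.62 RPKM at d23 and 13.2, 16.3, 12.5 and 15.4 RPKM in the iPS cells (log2 0.47 ± 0.12 SE, adjusted p = 0.0512), with all 4 iPS values above all 4 d23 values. The deposited values do not separate the cell's own copies of Pou5f1, Sox2, Klf4 and Myc from doxycycline-driven copies. At d21, with the drug, Klf4 had stood at 169 ± 90.8 and Myc at 50.0 ± 12.8 RPKM.

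Naive pluripotency regulators, the factors that keep the ground state of mouse stem cells, gave few calls. Of 26 tested 0 rose and 2 fell in limma, with 12 at an unadjusted p under 0.05. Over all genes tested 7.35% rose and 8.76% fell. There were 1 rise and 1 fall when SC2 was left out, and 4 rises and 1 fall when SC4 was. The median over the list was 0.43. By clone it was 0.42, 1.20, 0.14 and -0.10 in SC1 to SC4: the median was highest in SC2, and in SC4 16 of the 26 were lower in the iPS cells. Esrrb, a nuclear receptor of the network, measured 24.9, 5.35, 25.9 and 35 RPKM at d23 and 42.6, 21.2, 25.9 and 20.7 RPKM in the iPS cells (log2 0.46 ± 0.39 SE, adjusted p = 0.434). Zfp42 (Rex1) measured 68.3, 12.8, 66.2 and 99 RPKM at d23 and 126, 80.3, 115 and 93.2 RPKM in the iPS cells (log2 1.03 ± 0.39 SE, adjusted p = 0.119). Fbxo15, used as a reporter gene of reprogramming, measured 29.7, 7.98, 33.8 and 38.7 RPKM at d23 and 62.6, 40.5, 59.1 and 41.5 RPKM in the iPS cells (log2 1.04 ± 0.32 SE, adjusted p = 0.073). In each of these 3, SC2 was far below the other clones at d23 and near them in the iPS cells. The 2 that fell were Tbx3 (7.87, 11.6, 5.91 and 7.85 RPKM at d23 and 3.72, 4.45, 3.83 and 2.89 RPKM in the iPS cells, log2 -0.96 ± 0.15 SE, adjusted p = 0.023) and Il6st, the gp130 receptor chain for LIF (21.8 ± 5.87 RPKM at d23 and 15.5 ± 2.71 RPKM in the iPS cells, log2 -0.44 ± 0.10 SE, adjusted p = 0.0354).

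Rises past the threshold appeared among the late pluripotency genes. Of 15 tested, 5 rose and 0 fell (median 0.77): Tdh, L1td1, Dppa2, Dppa3 and Trh. Tdh, threonine dehydrogenase, on which mouse pluripotent cells depend for threonine breakdown, measured 30.1, 6.02, 11.3 and 20.3 RPKM at d23 and 58.7, 30.5, 40.4 and 37.4 RPKM in the iPS cells (log2 1.43 ± 0.24 SE, adjusted p = 0.024). L1td1 binds RNA and is typical of pluripotent cells; it measured 79.7, 26.4, 53.5 and 68.2 RPKM at d23 and 132, 113, 144 and 144 RPKM in the iPS cells (log2 1.31 ± 0.22 SE, adjusted p = 0.024). Dppa2, a chromatin protein of the early embryo, measured 6.75, 2.21, 6.88 and 5.8 RPKM at d23 and 15.2, 13.6, 14 and 11.7 RPKM in the iPS cells (log2 1.27 ± 0.23 SE, adjusted p = 0.0273). For all 3 every iPS library was above every d23 library, and for L1td1 and Dppa2 the clones were closer together in the iPS cells than at d23. Dppa3 (Stella), a maternal factor that guards methylation, measured 9.02, 1.87, 12.5 and 13.7 RPKM at d23 and 31.3, 10.5, 18.5 and 19 RPKM in the iPS cells (log2 1.16 ± 0.29 SE, adjusted p = 0.0464). Trh, the thyrotropin-releasing hormone, measured 206, 46.2, 111 and 145 RPKM at d23 and 263, 111, 239 and 303 RPKM in the iPS cells (log2 0.94 ± 0.17 SE, adjusted p = 0.026).

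The remaining members of that list were not called. Lin28a, the let-7-binding protein, measured 64.9, 17.9, 53.1 and 54.4 RPKM at d23 and 85.1, 71.6, 85 and 90.6 RPKM in the iPS cells (log2 0.93 ± 0.26 SE, adjusted p = 0.0574), and its iPS values were above all d23 values. Dppa4, the partner of Dppa2, measured 17.1, 2.79, 24.2 and 28.5 RPKM at d23 and 33.4, 19.5, 23.1 and 24.1 RPKM in the iPS cells (log2 0.77 ± 0.44 SE, adjusted p = 0.255). Dppa5a measured 293, 63.2, 539 and 689 RPKM at d23 and 489, 276, 390.5 and 339.7 RPKM in the iPS cells (log2 0.34 ± 0.50 SE, adjusted p = 0.652), higher in SC1 and SC2 and lower in SC3 and SC4. The mean of log2(RPKM + 1) over the 15 late pluripotency genes was 5.13, 3.26, 5.36 and 5.60 at d23 and 5.77, 5.09, 5.79 and 5.70 in the iPS cells, with the largest step in SC2. Without SC2, 4 of the 15 rose. For 18 germline and meiotic genes limma gave 0 calls in either direction (median 0.23), with 5 at an unadjusted p under 0.05 and 5 rises when SC4 was left out. Sycp3, of the synaptonemal complex, had the highest level (6.61, 2.17, 29 and 35.4 RPKM at d23 and 10.7, 4.57, 13.8 and 12.1 RPKM in the iPS cells, log2 -0.26 ± 0.41 SE, adjusted p = 0.674), and was lower in the iPS cells of SC3 and SC4.

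Genes of the primed epiblast, the state just before gastrulation, gave 3 rises and 1 fall among 13 (median 0.61). Over all genes tested 7.35% rose and 8.76% fell. Dnmt3b, the methyltransferase that sets new methylation at that stage, measured 60.4, 17.4, 50.4 and 53.2 RPKM at d23 and 64.9, 40.8, 119.6 and 154 RPKM in the iPS cells (log2 1.01 ± 0.23 SE, adjusted p = 0.0398). Foxd3 measured 2.62, 1.04, 2.13 and 4.64 RPKM at d23 and 3.38, 3.41, 6.23 and 8.18 RPKM in the iPS cells (log2 0.82 ± 0.18 SE, adjusted p = 0.0346). Etv4, an ETS factor induced by FGF, measured 10.4, 6.78, 7.51 and 8.49 RPKM at d23 and 15.2, 12.3, 14.6 and 17 RPKM in the iPS cells (log2 0.77 ± 0.11 SE, adjusted p = 0.0212). Dnmt3b rose most in SC3 and SC4 and little in SC1. Cldn6 was the fall, given above with the junction genes. Without SC2 there were 1 rise and 2 falls.

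Primitive streak and mesoderm genes split the clones. T (brachyury), the defining factor of the streak, measured 4.97, 1.6, 0.28 and 0.28 RPKM at d23 and 7.26, 4.12, 7.68 and 13.4 RPKM in the iPS cells (log2 1.93 ± 0.51 SE, adjusted p = 0.0529). Mixl1 measured 2.71, 1.34, 0.12 and 0.24 RPKM at d23 and 4.36, 0.87, 3.47 and 10.2 RPKM in the iPS cells (log2 1.34 ± 0.55 SE, adjusted p = 0.137), Lhx1 2.81, 0.94, 0.24 and 0.66 RPKM at d23 and 4.65, 0.31, 4.49 and 11.9 RPKM in the iPS cells (log2 1.28 ± 0.56 SE, adjusted p = 0.159). Fgf8, a streak growth factor, measured 13.2, 3.22, 2.83 and 3.23 RPKM at d23 and 9.81, 2.44, 16.9 and 26.3 RPKM in the iPS cells (log2 1.06 ± 0.58 SE, adjusted p = 0.237). In SC3 and SC4 all 7 members tested were higher in the iPS cells, with medians of 2.00 and 2.69. In SC1 4 of the 7 were higher (median 0.11), and in SC2 1 of 7 (median -0.32). SC1 had the highest d23 values of T, Mixl1, Lhx1 and Fgf8, and SC4 the highest iPS values. limma called 0 of the 7 in either direction, with T and Mixl1 (2 of 7) at an unadjusted p under 0.05 and 1 rise when SC4 was left out. The Wnt target Sp5 (4.9, 2.39, 0.34 and 0.30 RPKM at d23 and 5.0, 1.95, 4.12 and 9.01 RPKM in the iPS cells) and the endoderm factor Foxa2 (2.64, 1.19, 0.28 and 0.36 RPKM at d23 and 2.71, 0.57, 3.19 and 7.53 RPKM in the iPS cells) were also higher in the iPS cells of SC3 and SC4 and lower in those of SC2. T stood at 0.128 ± 0.12 RPKM at d21, 0.745 ± 0.782 at d27 and 0.010 ± 0.010 in feeders (n = 3).

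**Figure D3:**
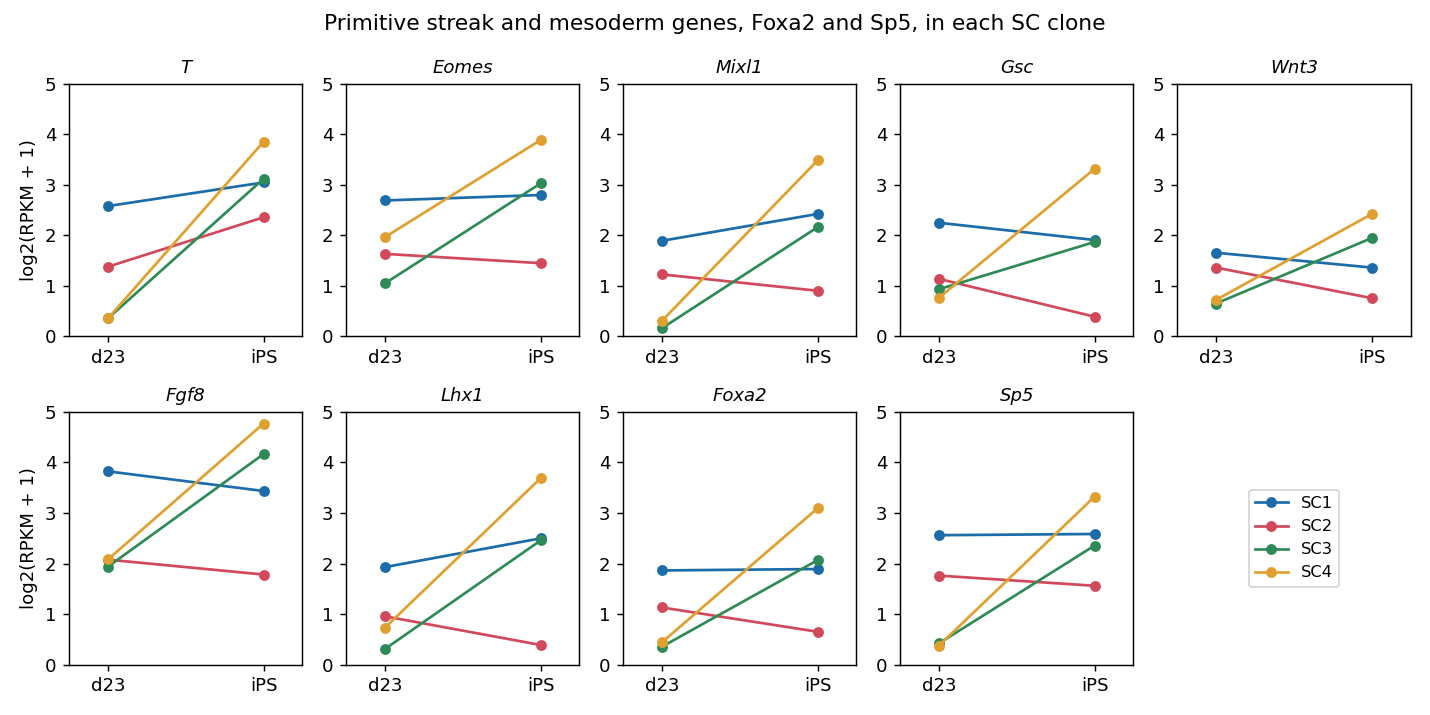
log2(RPKM + 1) (y axes) at d23 and in the iPS cells (x axes) for the 7 primitive streak and mesoderm genes tested, Foxa2 and Sp5, with 1 line per SC clone. SC3 and SC4 climb steeply for every gene, SC1 starts high and stays near its d23 level for most, and SC2 falls for every gene but T.

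Most endoderm genes tested fell, and the trophoblast, neural and Hox lists gave 1 or 2 calls each. Over all genes tested 16.1% were called and 8.76% fell. Of 8 endoderm genes 5 fell and 0 rose (median -0.70), with 3 falls when SC2 was left out. Summed RPKM of the 14 endoderm genes found was 62.8 to 110 at d23, 36.2 to 54.4 in the iPS cells and 80.4 to 87.7 in feeders. In the feeders 11 of the 14 were under 1 RPKM. The feeder mean was above all 8 libraries for 1 of the 8 tested. The part of feeder or fibroblast RNA in these falls was not tested. Foxa2, a member of this list given above with the streak genes, did not pass. It was higher in the iPS cells of SC1, SC3 and SC4 and lower in those of SC2. Gata4, an inducer of primitive endoderm, measured 3.58, 1.9, 1.22 and 2.53 RPKM at d23 and 1.24, 0.66, 0.31 and 0.57 RPKM in the iPS cells (log2 -0.94 ± 0.12 SE, adjusted p = 0.0212), and the laminin chains of the endoderm basement membrane stood at 54.7 ± 19 RPKM at d23 and 26 ± 5.73 RPKM in the iPS cells (log2 -1.01 ± 0.11 SE, adjusted p = 0.0212) for Lamb1 and 12.4 ± 8.45 RPKM at d23 and 5.74 ± 3.41 RPKM in the iPS cells (log2 -0.91 ± 0.19 SE, adjusted p = 0.0323) for Lama1. Gata4 fell in all 4 clones and was at most 1.24 RPKM in the iPS libraries. Of 5 trophoblast genes 2 fell, Hand1 (1.85 ± 1.01 RPKM at d23 and 0.415 ± 0.28 RPKM in the iPS cells, log2 -0.97 ± 0.22 SE, adjusted p = 0.037) and Tead4 (3.83 ± 0.746 RPKM at d23 and 1.92 ± 0.724 RPKM in the iPS cells, log2 -0.75 ± 0.17 SE, adjusted p = 0.037). Of 7 neural genes the neuronal tubulin Tubb3 rose (14.3, 13.4, 9.5 and 8.36 RPKM at d23 and 28, 18.2, 22.9 and 21.6 RPKM in the iPS cells, log2 0.95 ± 0.16 SE, adjusted p = 0.0241) and the adhesion molecule Ncam1 fell (11 ± 11.7 RPKM at d23 and 2.73 ± 1.55 RPKM in the iPS cells, log2 -1.30 ± 0.32 SE, adjusted p = 0.0442). Of 6 Hox genes 1 fell, Hoxa10 (2.79 ± 1.48 RPKM at d23 and 0.655 ± 0.409 RPKM in the iPS cells, log2 -1.11 ± 0.24 SE, adjusted p = 0.0365), with 6 falls when SC4 was left out. Without SC2 the trophoblast, Ncam1 and Hox calls were lost, and without SC4 2 neural genes fell.

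Ribosome biogenesis was the group with the most uniform rise. These genes transcribe and process ribosomal RNA and assemble the subunits. Of 22 tested 20 rose and 0 fell, and all 22 were higher in all 4 clones, where 21.1% of all genes were. The median was 0.71 and the fitted differences ran from 0.49 to 0.98. Nop2, a methyltransferase of ribosomal RNA, measured 38.7, 22.9, 32.9 and 32.9 RPKM at d23 and 55.8, 46.2, 61.2 and 61.3 RPKM in the iPS cells (log2 0.81 ± 0.11 SE, adjusted p = 0.0212). Rrp12 measured 13.2, 7.04, 14.9 and 12.3 RPKM at d23 and 21.4, 15.2, 24.1 and 23.4 RPKM in the iPS cells (log2 0.80 ± 0.10 SE, adjusted p = 0.0212). Polr1a, the largest subunit of RNA polymerase I, measured 15.7, 11.1, 17.6 and 15.1 RPKM at d23 and 22.8, 21.6, 28.9 and 28 RPKM in the iPS cells (log2 0.73 ± 0.10 SE, adjusted p = 0.0212). Bop1, of the complex that matures the large subunit, measured 35.4, 21.1, 26.5 and 25.4 RPKM at d23 and 49.6, 37.8, 50.1 and 51.5 RPKM in the iPS cells (log2 0.79 ± 0.11 SE, adjusted p = 0.0216). In all of these 4 genes the iPS libraries were above the d23 libraries, and over the list this held for 15 of 22 (5.85% of all genes). Nhp2 and Dkc1, partners in pseudouridylation, did not pass (adjusted p = 0.0738 and 0.0545). Without SC2 15 of the 22 rose, and without the clone block 0. The E-box CACGTG, the letters bound by Myc, occurred in the 250 bases upstream of 1 of 18 members in the RefSeq table, 6.86% of all genes there and 10.2% of tested ones.

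**Figure D4:**
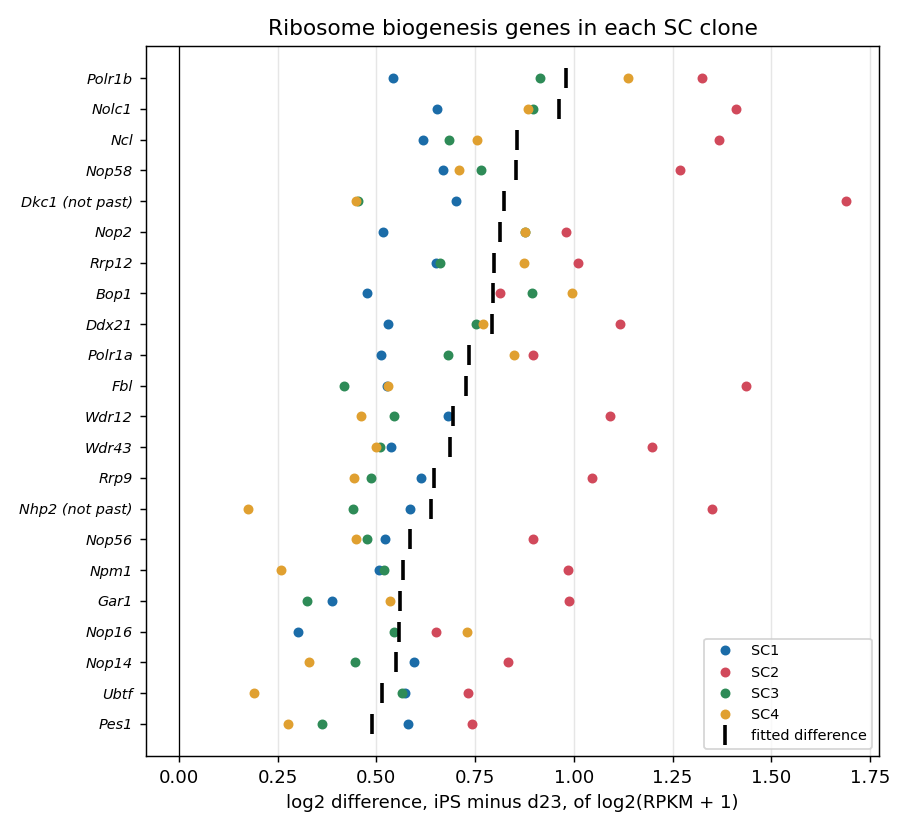
Difference in log2(RPKM + 1) between iPS and d23 (x axis) of the 22 ribosome biogenesis genes tested (y axis), 1 coloured point per SC clone and a black bar for the fitted difference. Every point lies to the right of 0; SC2 has the largest difference for most genes.

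Genes of DNA synthesis and one-carbon metabolism rose in part. Of 29 DNA replication genes 8 rose and 0 fell (median 0.47), with 4 rises when SC2 was left out. Fen1, the flap endonuclease, measured 20.3, 10.4, 16.5 and 17.2 RPKM at d23 and 27.7, 21.2, 27.3 and 29.2 RPKM in the iPS cells (log2 0.70 ± 0.11 SE, adjusted p = 0.0234). Cdc6, the origin licensing factor, measured 6.47, 2.08, 6.96 and 7.23 RPKM at d23 and 9.0, 6.85, 12.1 and 12.6 RPKM in the iPS cells (log2 0.80 ± 0.16 SE, adjusted p = 0.0321); Tyms (thymidylate synthase) stood at 3.31 ± 1.09 RPKM at d23 and 5.94 ± 1.09 RPKM in the iPS cells (log2 0.70 ± 0.12 SE, adjusted p = 0.0252). The helicase subunit Mcm3 did not pass (105 ± 44.3 RPKM at d23 and 152 ± 27.2 RPKM in the iPS cells, log2 0.67 ± 0.22 SE, adjusted p = 0.0831). Of 24 mitosis genes limma called 0 in either direction (median 0.29), with 3 at an unadjusted p under 0.05 and 2 rises when SC4 was left out. All 24 were higher in SC1 and in SC2, 12 in SC3 and 3 in SC4. Of 19 threonine, serine and one-carbon genes 7 rose and 0 fell (median 0.39). Mat2a, which makes the methyl donor S-adenosylmethionine, measured 54.2, 39.8, 30.2 and 37.5 RPKM at d23 and 90.3, 82.9, 83.4 and 87.5 RPKM in the iPS cells (log2 1.10 ± 0.13 SE, adjusted p = 0.0212), and its 4 iPS values lay closer together than its d23 values. Gcsh, of the glycine cleavage system, stood at 28.1 ± 7.31 RPKM at d23 and 46 ± 7.94 RPKM in the iPS cells (log2 0.71 ± 0.10 SE, adjusted p = 0.0212) and Atic, of purine synthesis, at 32.8 ± 7.69 RPKM at d23 and 54.1 ± 6.72 RPKM in the iPS cells (log2 0.73 ± 0.12 SE, adjusted p = 0.0247).

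Chromatin regulators moved modestly. Polycomb genes encode the complexes that lay down repressive histone marks, and of 18 tested 4 rose and 0 fell (median 0.30). Jarid2, an accessory subunit of Polycomb complex 2, measured 39.8, 20.3, 40.4 and 37.5 RPKM at d23 and 69.1, 54.2, 81.1 and 74 RPKM in the iPS cells (log2 1.03 ± 0.12 SE, adjusted p = 0.0212), with separate groups. Its partner Eed measured 44.2, 23.1, 33.1 and 38.7 RPKM at d23 and 69.1, 50.8, 50.5 and 49.2 RPKM in the iPS cells (log2 0.67 ± 0.14 SE, adjusted p = 0.0328). Kdm2b stood at 5.78 ± 1.63 RPKM at d23 and 9.01 ± 0.891 RPKM in the iPS cells (log2 0.60 ± 0.15 SE, adjusted p = 0.0448). The methyltransferase Ezh2 measured 17.8, 7.75, 16.6 and 15.1 RPKM at d23 and 23.2, 13.5, 20.5 and 19 RPKM in the iPS cells (log2 0.42 ± 0.11 SE, adjusted p = 0.0491). Of 11 DNA methylation genes 2 rose, Dnmt3b and Trim28 (189, 102, 182 and 182 RPKM at d23 and 251, 202, 283 and 267 RPKM in the iPS cells, log2 0.64 ± 0.13 SE, adjusted p = 0.0309), the latter the corepressor of KRAB zinc finger proteins; without SC2 1 was called. Tet1, which oxidises methylcytosine, did not pass but had separate groups (17.7, 4.3, 17.3 and 18.7 RPKM at d23 and 31.8, 25.5, 25.5 and 22.2 RPKM in the iPS cells, log2 0.97 ± 0.33 SE, adjusted p = 0.0947). Without SC2 there were 2 Polycomb rises. Over all genes tested 7.35% rose.

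Imprinted genes divided, with 2 rises and 5 falls among 18, and 2 and 3 when SC2 was left out. Over all genes tested 7.35% rose and 8.76% fell. Sgce measured 6.62, 11.9, 6.27 and 5.16 RPKM at d23 and 1.68, 2.45, 1.93 and 1.91 RPKM in the iPS cells (log2 -1.45 ± 0.15 SE, adjusted p = 0.0212). Igf2, the fetal growth factor, measured 21, 33.7, 33.9 and 11.9 RPKM at d23 and 7.5, 13.4, 9.49 and 7.15 RPKM in the iPS cells (log2 -1.26 ± 0.18 SE, adjusted p = 0.0212). Snrpn rose (56.4, 32.6, 54.6 and 49.2 RPKM at d23 and 87, 54.3, 117 and 132 RPKM in the iPS cells, log2 0.96 ± 0.15 SE, adjusted p = 0.0234), as did Impact (41.1, 43.1, 41.8 and 43.4 RPKM at d23 and 61.1, 59.1, 61.4 and 55.6 RPKM in the iPS cells, log2 0.48 ± 0.09 SE, adjusted p = 0.0281).

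Several chemokines rose. Of 15 cytokines and chemokines 6 rose and 1 fell (median 0.43), with 0 falls without SC2 and 2 without SC4. Cxcl5, a neutrophil chemoattractant, had the largest rise among named genes, at 12.4, 5.15, 2.0 and 5.61 RPKM at d23 and 34, 90.0, 22.6 and 26.4 RPKM in the iPS cells (log2 2.58 ± 0.39 SE, adjusted p = 0.023). Ccl2, which attracts monocytes, measured 71.9, 51.2, 9.34 and 14.6 RPKM at d23 and 121, 267, 76.8 and 95.2 RPKM in the iPS cells (log2 2.16 ± 0.35 SE, adjusted p = 0.024), and its neighbour Ccl7 74.9, 71.9, 22.2 and 27.3 RPKM at d23 and 105, 216, 65 and 77.2 RPKM in the iPS cells (log2 1.26 ± 0.20 SE, adjusted p = 0.0234). Il6 measured 3.66, 4.54, 1.7 and 1.95 RPKM at d23 and 7.43, 17.1, 5.76 and 6.26 RPKM in the iPS cells (log2 1.30 ± 0.15 SE, adjusted p = 0.0212). SC2 was the highest iPS library for each of these 4. Il1rl1, of the interleukin-1 receptor family, measured 17.2, 14, 3.9 and 3.43 RPKM at d23 and 31.8, 78.2, 20.0 and 22.6 RPKM in the iPS cells (log2 1.94 ± 0.27 SE, adjusted p = 0.0212). Cxcl1 measured 5.51, 3.44, 2.48 and 8.65 RPKM at d23 and 17.9, 46.3, 9.88 and 12.9 RPKM in the iPS cells (log2 1.78 ± 0.43 SE, adjusted p = 0.0429). The feeder mean was above all 8 libraries for all 15: Cxcl5 stood at 302 ± 43.9 and Ccl2 at 520.3 ± 5.31 RPKM in feeders (n = 3). Summed RPKM of the 18 genes of this list was 887 to 1373 at d14, 149 to 332 at d21, 342 to 518 at d22, 72.9 to 286 at d23, 217 to 753 in the iPS cells, 342 to 471 at d27 and 1813 to 1951 in feeders. The iPS range thus overlapped those of d21, d22, d23 and d27 and lay below that of d14. The part of feeder RNA in these rises was not tested.

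Interferon response genes went different ways in the clones. Of 21 tested 3 rose and 0 fell (median 0.67): Ifit3, Ifit1 and Ifit2, antiviral RNA-binding proteins. Ifit3 measured 0.91, 2.55, 0.47 and 0.26 RPKM at d23 and 8.32, 6.06, 6.03 and 3.39 RPKM in the iPS cells (log2 1.83 ± 0.23 SE, adjusted p = 0.0212). Ifit1 measured 1.28, 9.59, 0.76 and 0.42 RPKM at d23 and 8.17, 9.74, 6.11 and 4.51 RPKM in the iPS cells (log2 1.5 ± 0.36 SE, adjusted p = 0.0421). In SC1, SC3 and SC4, 19, 20 and 21 of the 21 were higher in the iPS cells, while in SC2 18 were lower. SC2 had the highest d23 level of Ifit1 and Ifit3. Without SC2 limma called 14 of the 21 higher. The feeder mean was above all 8 libraries for 14 of the 21, and Ifit1 stood at 32 ± 1.99 RPKM there. Of 12 genes of MHC class I presentation 1 fell, the peptide transporter Tap1 (4.07 ± 0.73 RPKM at d23 and 2.55 ± 0.65 RPKM in the iPS cells, log2 -0.52 ± 0.13 SE, adjusted p = 0.0466), with 0 falls without SC2 and 2 without SC4. Over all genes tested 7.35% rose and 8.76% fell.

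The promoters of Ifit1 and Ifit3 are shown because these genes rose and hold the repeated letters of an interferon response element. Capitals mark matches to the reverse complement of GAAANNGAA, where N is any base. The Ifit1 run lies at chr19:34640639-34640888 and the Ifit3 run at chr19:34583279-34583528, both on the plus strand (GRCm38.p6).
Ifit1: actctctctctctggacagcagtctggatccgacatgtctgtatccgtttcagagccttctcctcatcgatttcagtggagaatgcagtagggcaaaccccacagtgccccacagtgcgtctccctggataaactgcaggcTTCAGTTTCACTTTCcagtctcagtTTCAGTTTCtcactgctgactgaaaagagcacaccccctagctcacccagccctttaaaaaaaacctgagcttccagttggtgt
Ifit3: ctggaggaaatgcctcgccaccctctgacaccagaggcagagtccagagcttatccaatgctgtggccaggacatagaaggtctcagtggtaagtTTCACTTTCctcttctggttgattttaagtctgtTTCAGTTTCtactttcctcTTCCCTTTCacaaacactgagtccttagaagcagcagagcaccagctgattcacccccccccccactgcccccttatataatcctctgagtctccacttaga
Each run held 3 matches, and the first and second in Ifit1 overlap. Searched on both strands, GAAANNGAA occurred in 8 of 16 list members with a promoter in the RefSeq table, against 8.18% of all genes there and 7.21% of tested ones. The upstream runs of Ifit2 held 0 matches, and it rose too (1.34 ± 0.72 RPKM at d23 and 2.85 ± 0.668 RPKM in the iPS cells, log2 0.75 ± 0.14 SE, adjusted p = 0.0294). A match describes letters only.

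Glycolysis and hypoxia-responsive genes were lower. Of 28 tested 10 fell and 1 rose (median -0.46). P4ha1, the collagen prolyl hydroxylase induced by hypoxia, measured 52.1, 65.5, 58.3 and 45.9 RPKM at d23 and 21.3, 32.4, 20.2 and 18.4 RPKM in the iPS cells (log2 -1.25 ± 0.11 SE, adjusted p = 0.0212). Slc2a1, the glucose transporter GLUT1, measured 161, 148, 390.4 and 335 RPKM at d23 and 109, 66.5, 196 and 160.4 RPKM in the iPS cells (log2 -0.94 ± 0.13 SE, adjusted p = 0.0212). Ndrg1 measured 11.8, 6.38, 26.2 and 17.7 RPKM at d23 and 6.34, 3.42, 13.2 and 10.6 RPKM in the iPS cells (log2 -0.79 ± 0.09 SE, adjusted p = 0.0212). P4ha1 had separate groups, whereas Slc2a1 and Ndrg1 differed more between clones than between days and fell within each clone. Pkm, the pyruvate kinase of proliferating cells, was nearly equal (610.4 ± 149.5 RPKM at d23 and 584 ± 72.7 RPKM in the iPS cells, log2 -0.04 ± 0.14 SE, adjusted p = 0.871). Of 32 oxidative phosphorylation subunits 1 fell, Cox7a1 (13.4 ± 7.56 RPKM at d23 and 7.17 ± 3.34 RPKM in the iPS cells, log2 -0.75 ± 0.13 SE, adjusted p = 0.026), and 0 rose, with a median of 0.01. Without SC2 there were 5 falls and 0 rises in the glycolysis and hypoxia list, without SC4 8 and 0, and without SC2 0 calls among the oxidative phosphorylation subunits.

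Signalling and surface genes gave 0 to 4 calls per list, and these counts moved with the clones left out. Over all genes tested 16.1% were called. Podxl (podocalyxin, a sialomucin) measured 29.9, 60.5, 38.6 and 34.9 RPKM at d23 and 9.51, 4.16, 11.9 and 14.1 RPKM in the iPS cells (log2 -1.999 ± 0.38 SE, adjusted p = 0.0291). Cd9, a tetraspanin, measured 66.9, 88.5, 89.6 and 80.3 RPKM at d23 and 53.6, 47.7, 36.7 and 36.7 RPKM in the iPS cells (log2 -0.89 ± 0.17 SE, adjusted p = 0.0285); these were 2 of 10 surface markers and fell with separate groups. Of 14 BMP and Id genes 2 fell, among them Id1, a BMP-induced inhibitor of differentiation, at 16.6, 22.4, 12.9 and 10.9 RPKM at d23 and 9.55, 8.76, 5.22 and 5.01 RPKM in the iPS cells (log2 -1.03 ± 0.12 SE, adjusted p = 0.0212), and Bmp7 at 2.74 ± 0.522 RPKM at d23 and 1.01 ± 0.393 RPKM in the iPS cells (log2 -0.91 ± 0.15 SE, adjusted p = 0.024). Among 18 FGF and ERK feedback genes 2 rose and 2 fell: Fgf17 (5.54, 0.88, 2.59 and 2.75 RPKM at d23 and 7.15, 6.4, 6.94 and 6.85 RPKM in the iPS cells, log2 1.13 ± 0.26 SE, adjusted p = 0.0386) and Etv4 rose, Fgfbp1 (19 ± 4.39 RPKM at d23 and 9.93 ± 0.851 RPKM in the iPS cells, log2 -0.85 ± 0.14 SE, adjusted p = 0.024) and Spry1, a feedback inhibitor (8.36 ± 2.16 RPKM at d23 and 4.66 ± 1.31 RPKM in the iPS cells, log2 -0.73 ± 0.13 SE, adjusted p = 0.0262), fell. Of 11 Wnt target genes limma called 0 in either direction (median 0.20), with 2 at an unadjusted p under 0.05 and 1 rise when SC4 was left out; Lef1 had separate groups at 1.18, 0.68, 1.26 and 0.91 RPKM at d23 and 1.41, 1.27, 4.3 and 4.14 RPKM in the iPS cells (log2 0.81 ± 0.24 SE, adjusted p = 0.0654). Of 25 sterol and fatty acid synthesis genes the fatty acid synthase Fasn rose (46.4 ± 10.8 RPKM at d23 and 86.3 ± 32.3 RPKM in the iPS cells, log2 0.83 ± 0.15 SE, adjusted p = 0.0273) and the regulator Srebf2 fell (49.5 ± 4.99 RPKM at d23 and 34.2 ± 5.58 RPKM in the iPS cells, log2 -0.53 ± 0.12 SE, adjusted p = 0.0368). Of 10 mesenchymal transcription factors 1 fell, Snai1 (9.62 ± 4.15 RPKM at d23 and 5.2 ± 0.915 RPKM in the iPS cells, log2 -0.71 ± 0.18 SE, adjusted p = 0.0484), and of 5 endothelial genes limma called 0, with 1 at an unadjusted p under 0.05 and 1 fall without SC4. Without SC2 limma called 1 surface marker, 2 BMP and Id genes, 1 FGF and ERK gene, 0 mesenchymal factors and 0 sterol genes, and without SC4 3 surface markers, 5 BMP and Id genes, 4 FGF and ERK genes and 3 mesenchymal factors fell.

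Several genes outside the lists rose in every clone from low levels. Ina (alpha-internexin, a neuronal intermediate filament protein) measured 8.25, 2.04, 2.65 and 2.82 RPKM at d23 and 19.7, 16.7, 14.3 and 16.4 RPKM in the iPS cells (log2 1.99 ± 0.22 SE, adjusted p = 0.0212). Slc27a2, a fatty acid transporter, measured 2.78, 0.65, 1.01 and 0.79 RPKM at d23 and 7.05, 5.85, 4.22 and 5.25 RPKM in the iPS cells (log2 1.58 ± 0.18 SE, adjusted p = 0.0212). Enox1 measured 3.9, 1.05, 1.38 and 1.24 RPKM at d23 and 10.2, 9.3, 6.84 and 6.37 RPKM in the iPS cells (log2 1.74 ± 0.19 SE, adjusted p = 0.0212). Nefh, the heavy neurofilament chain, measured 1.55, 0.55, 2.97 and 2.75 RPKM at d23 and 4.75, 5.54, 9.4 and 8.95 RPKM in the iPS cells (log2 1.51 ± 0.17 SE, adjusted p = 0.0212). Cpsf4l measured 2.98, 0.51, 2.49 and 3.59 RPKM at d23 and 10.8, 5.66, 8.4 and 8.59 RPKM in the iPS cells (log2 1.55 ± 0.18 SE, adjusted p = 0.0212). All iPS libraries were above all d23 libraries for these 5, and the feeder means were under 1 RPKM. Serpinb2, a protease inhibitor at 26.2 ± 3.18 RPKM in feeders, measured 1.69, 2.45, 0.61 and 0.78 RPKM at d23 and 7.92, 19.2, 4.47 and 5.69 RPKM in the iPS cells (log2 1.99 ± 0.16 SE, adjusted p = 0.0212). Ina, Slc27a2 and Enox1 were also called without the clone block.

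The size of the change differed between clones. SC2 showed 487 genes at least 2-fold higher and 1107 lower, SC1 72 and 426, SC3 118 and 337, and SC4 215 and 256. The keratin medians had the same sign in all 4 clones, as did those of the ribosome biogenesis, junction, immediate early and glycolysis lists. The naive and late pluripotency, mitosis, smooth muscle, interferon and streak lists differed in sign between clones.

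**Figure D5:**
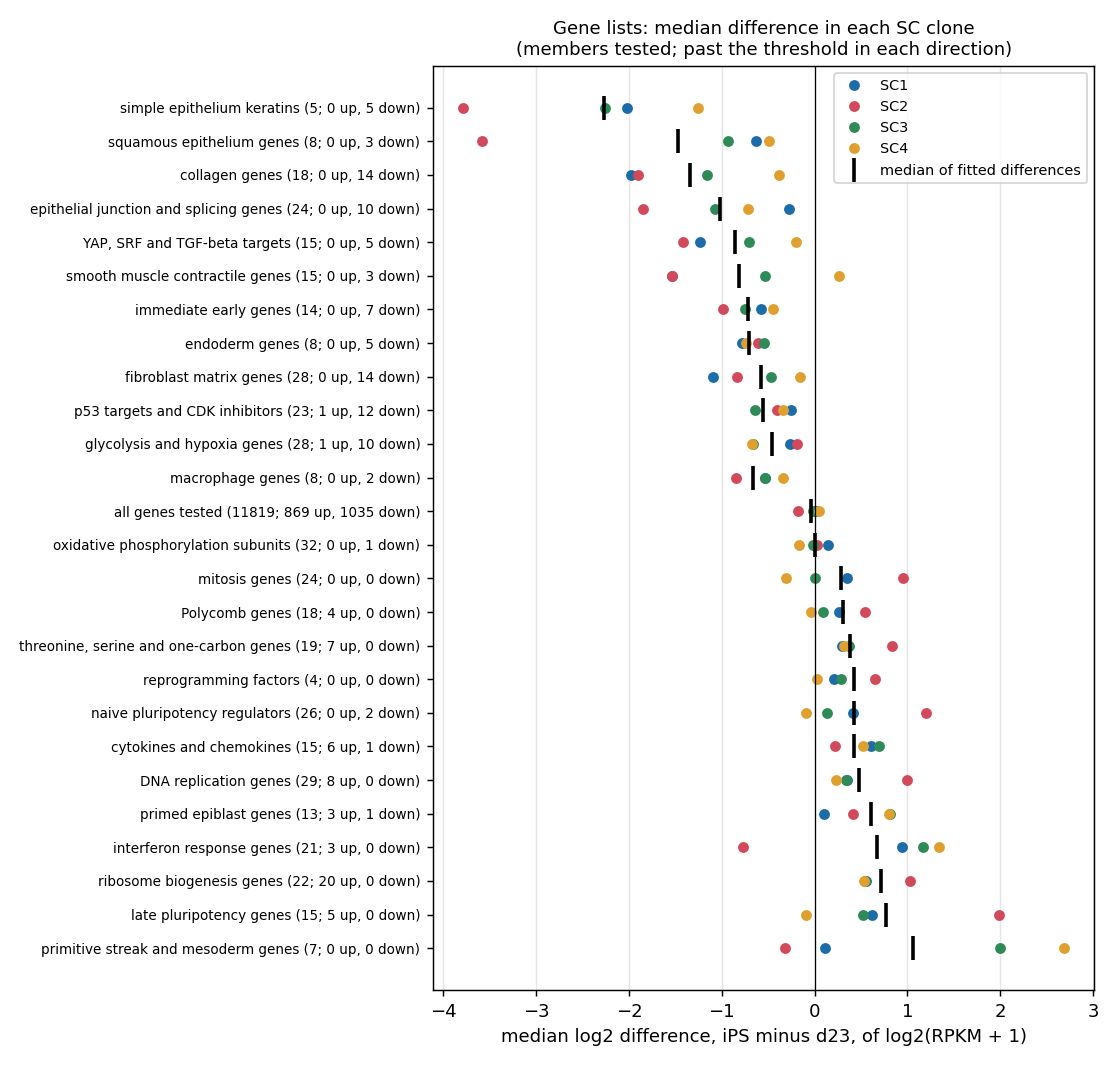
Median difference in log2(RPKM + 1), iPS minus d23 (x axis), over the tested members of 25 gene lists and over all genes tested (y axis, with the number tested and the numbers past the threshold), 1 coloured point per SC clone; the black bar is the median of the fitted differences. Keratins are lowest and ribosome biogenesis genes are above 0 in all 4 clones, while interferon genes are below 0 in SC2 alone and streak genes are above 0 in SC1, SC3 and SC4.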

How the data were processed

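Messenger RNA was measured in 47 libraries, of which the 4 SC d23 and 4 SC iPS libraries were compared. RNA was column-purified with DNase treatment and made into Illumina TruSeq libraries, per the labels' protocols. The authors deposited 1 table of RPKM values to 2 decimals for 22632 genes; it does not name its unit, which was read from the values. The submitters' processing notes list CASAVA 1.8 and mm9 and give neither a role. Which aligner, annotation and filters the authors used is not given in the sources used here. Depth was estimated from the steps of low RPKM values in genes of up to 600 bases, with lengths from GENCODE M21. The labels disagree on the d22 and d23 schedule. Their treatment text counts all days up to d22 and d23 as days with doxycycline, whereas the per-library entries give days with and without it. The per-library days were followed.

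A gene was tested if it reached 1 RPKM in at least 4 of the 8 libraries (11819 genes). The model was a linear fit by limma 3.58.1 under R 4.3.3 (lmFit and eBayes, trend on) to log2(RPKM + 1), with the clone as a block. Tests were two-sided, with Benjamini-Hochberg adjustment across the genes tested and a threshold of 0.05. The p-values rest on how the iPS minus d23 difference varied among these clones only, since the block removes differences in level between clones. Pairing came from the clone names, and libraries of 1 clone deviated together from the group means (correlations of 0.171, 0.713, 0.709 and 0.457 over genes in SC1 to SC4), although both SC1 libraries and the SC4 d23 library correlated more with a library of another clone. The steps were tested on simulated data. Python 3.11.15, numpy 2.4.6, pandas 2.3.3 and matplotlib 3.10.9 made the tables and figures.

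Members of 41 gene lists (753 genes, 744 found, 596 tested) were counted in each direction, and no set test was run. The comparison, lists and tests were chosen with earlier results of these data known. Genes were named by rule. It took the 12 largest rises and the 12 largest falls that passed, had 1 direction in all 4 clones and averaged 5 RPKM or more in the higher group, and it skipped predicted genes without a given name. It added up to 4 members per list by smallest p, the list's highest member not past the threshold, and Pou5f1, Sox2, Klf4, Myc, Nanog, Esrrb, Zfp42, Dppa3, Lin28a, Dppa4, Dppa5a, Cdh1, Thy1, Col1a1 and Acta2. Some genes that the rule names are not reported here. Dkc1 and the genes named among those not tested were chosen after their values were seen. Promoters came from RefSeq (GRCm38.p6). Alternatives were a pseudocount of 0.1, no filter, rescaling by median ratio, no block, all 24 SC libraries in 1 fit, and leaving out each clone.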

Additional observations from a re-analysis of the deposited data

Results flagged for a closer look

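In 38 of 270 groups of 4 values checked, 1 clone lay far from the other 3, and chance alone gives about 1 in 20 such groups. The groups are not independent, because genes share libraries. Most of these values belong to SC2, and what sets that clone apart was not tested.

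SC2 was the highest clone at d23 for Krt17 at 85.7 against 7.69 to 11.7 RPKM and Laptm5 at 11.4 against 6.85 to 7.45 RPKM. SC2 was the lowest clone at d23 for Cdc6 at 2.08 against 6.47 to 7.23 RPKM, Dkc1 at 10.6 against 31.3 to 35 RPKM, Dnmt3b at 17.4 against 50.4 to 60.4 RPKM, Dppa2 at 2.21 against 5.8 to 6.88 RPKM and Jarid2 at 20.3 against 37.5 to 40.4 RPKM. It was also the lowest at d23 for Lin28a at 17.9 against 53.1 to 64.9 RPKM, Mcm3 at 38.6 against 123 to 133 RPKM, Nanog at 20.3 against 80.7 to 105 RPKM, Tet1 at 4.3 against 17.3 to 18.7 RPKM and Trim28 at 102 against 182 to 189 RPKM. SC2 was the highest clone in the iPS cells for Acta2 at 269 against 64.4 to 73.9 RPKM, Col1a1 at 289.9 against 105 to 119 RPKM, Cyr61 at 88.1 against 42.9 to 46.5 RPKM, Inhba at 60.3 against 21.4 to 24.7 RPKM and Jun at 19.7 against 10.8 to 11.4 RPKM. It was also the highest in the iPS cells for Lox at 188 against 54.4 to 61.5 RPKM, Ncam1 at 5.05 against 1.88 to 2.09 RPKM and Tnc at 647 against 235 to 271 RPKM. SC2 was the lowest clone in the iPS cells for Bmp7 at 0.43 against 1.14 to 1.3 RPKM, Bop1 at 37.8 against 49.6 to 51.5 RPKM, Btg2 at 13.5 against 17.2 to 18 RPKM, Cdh1 at 28.1 against 59.2 to 61 RPKM and Cldn3 at 0.57 against 1.5 to 1.64 RPKM. It was also the lowest in the iPS cells for Cldn6 at 9.29 against 27.2 to 31.9 RPKM, Crb3 at 0.86 against 3.64 to 4.18 RPKM, Epcam at 23.6 against 55.9 to 66.6 RPKM, Gcsh at 34.2 against 48.9 to 51.8 RPKM and Mcm3 at 111 against 165 to 167 RPKM. Further lowest values of SC2 in the iPS cells were those of Pou5f1 at 239.8 against 376 to 406 RPKM, Spry1 at 2.69 against 5.29 to 5.36 RPKM and Srebf2 at 25.9 against 35.9 to 38 RPKM. The mean of log2(RPKM + 1) over the late pluripotency genes was lowest in SC2 in the iPS cells, at 5.09 against 5.70 to 5.79 in the other clones. SC1 was the highest clone at d23 for Fgf8 at 13.2 against 2.83 to 3.23 RPKM and Tyms at 4.94 against 2.65 to 2.87 RPKM. SC4 was the highest clone at d23 for Hand1 at 3.36 against 1.24 to 1.46 RPKM. SC1 was the highest clone in the iPS cells for Eed at 69.1 against 49.2 to 50.8 RPKM.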

How the results depend on the processing

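All 1904 called genes kept their direction in each alternative in which they were tested. This was largely fixed in advance, because 869 of 869 rises and 1034 of 1035 falls had 1 direction in all 4 clones. It is therefore no check on the calls, and the same holds for the called genes among the named ones below. Leaving out 1 clone in turn gave 0 to 657 rises and 0 to 1378 falls, with 0 of both without SC1 (3334 at an unadjusted p under 0.05) and without SC3 (2568), and 466 and 431 without SC2. Genes at least 2-fold higher in all remaining clones numbered 11 to 31 and lower 39 to 162. This rule is looser than that of all 4 clones, which gave 10 and 36. Without the replicate block limma called 34 rises and 131 falls; without block and SC2, 625 and 585. Named genes still called without the block included Ina, Ifit3, Enox1, Slc27a2, Krt18, Krt8, Cldn4, Itgb4, Dsp, Cldn3, Krt19, Krt7, Des, Col15a1, Amotl2, Jund, Btg2, Laptm5, Sgce, P4ha1, Mat2a, Cd9 and Podxl. With no filter on low values (19760 genes tested) the counts were 252 and 242, and with all 24 SC libraries in the fit 1333 and 1812. A pseudocount of 0.1 gave 29 genes at least 2-fold higher and 99 lower in all clones. Rescaling moved the median of all genes from -0.03 to 0.01 and moved none of these 4 counts by over 1.5 times. Of 1906 values of named genes under the alternatives 1401 stayed on their side of the threshold, 444 lost their call, 61 gained one and 0 reversed; of 738 list counts 500 stayed within 1.5 times. The cause of these shifts was not tested. With 4 clones small changes may have been missed, and genes under the filter on low values were not tested in the main fit.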

Other observations

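Genes of the two-cell-like state, a rare state of mouse stem cell cultures that resembles the embryo just after the first cleavage, stayed under the filter on low values and were not tested under it with all 4 clones. With no filter limma called 0 of 7, with 6 at an unadjusted p under 0.05 and a lowest adjusted p of 0.0524. Without SC4 1 of them, Gm4340, passed the filter and limma called it higher in the iPS cells. Of 8 found, summed RPKM was 0.15 to 1.08 at d23 and 2.27 to 5.72 in the iPS cells, and these ranges did not overlap. At d21 the sum was 0.01 to 0.73, at d27 0 to 0.46, and in feeders 0.04 to 0.06. Zscan4d, which marks the state, measured 0.12, 0.05, 0.42 and 0.25 RPKM in SC1 to SC4 at d23 and 0.82, 1.65, 2.11 and 0.72 RPKM in the iPS cells. Gm4340 measured 0.10, 0.04, 0.26 and 0.37 RPKM and then 1.28, 2.51, 1.91 and 0.83 RPKM. Both were higher in the iPS cells of all 4 clones. Members of these families are near-identical copies, so reads may be shared between them, and at these depths a library value of 0.1 RPKM rests on few reads.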
